A study of Mus musculus with 6 samples.

Results

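The 8 genes described here encode the lipins (Lpin1, Lpin2 and Lpin3), the nuclear envelope phosphatase Ctdnep1 that acts on lipin, the lipid phosphate phosphatases Plpp1, Plpp2 and Plpp3, and their relative Plpp7. Ctdnep1 is NET56 (Dullard) and Plpp7 is NET39 (Ppapdc3) in the numbering of nuclear envelope transmembrane proteins (NETs) that the study used. Every probe set annotated to one of these symbols alone was taken, which gave 16 of the 45037 probe sets tested, for 8 of the 18193 genes that have a probe set of their own. The study asked which NET transcripts change when C2C12 cells, a line of mouse myoblasts, turn into muscle. Proliferating cultures were kept in 20% serum, and differentiated cultures were harvested on day 6 in 2% horse serum, with 3 RNA samples and 3 Affymetrix oligonucleotide arrays of the mouse genome per group. By the study's methods each RNA sample was itself a mixture, made of 3 plates grown together and then of 3 such pools set up on successive days, so the p-values measure the spread between mixed pools of cultures of a single cell line and not between single cultures.

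Lipins are soluble enzymes that remove the phosphate from phosphatidic acid at the endoplasmic reticulum, which gives diacylglycerol for the synthesis of triglycerides and phospholipids. Lipin-1 is the main form in skeletal muscle, and its loss in mice causes lipodystrophy. Ctdnep1 and its partner Cnep1r1 form a membrane-bound complex that dephosphorylates lipin, and lipin without its phosphates moves to membranes. Plpp1, Plpp2 and Plpp3 belong to another enzyme family, with several membrane spans and an active site facing outside the cell or the lumen, where they act on lysophosphatidic acid, sphingosine phosphate and phosphatidic acid. Plpp7 carries the same PAP2 domain, resides at the nuclear envelope, and is generally regarded as lacking the catalytic activity of its relatives.

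The values are linear MAS 5.0 signals, which the authors' software scaled so that the arrays have about the same trimmed mean. The signal plus a pseudocount of 15 was taken to log2 and all probe sets were tested together with limma. Calls required a p under 0.05 after Benjamini-Hochberg adjustment over all of them, and fold changes are on the log2(signal + 15) scale. The brightest of 27 probe sets for bacterial transcripts lay between 51.9 and 87.0 on the 6 arrays, and a signal at or under the one of its own array was read as background, a limit known from earlier results of these data. The arrays matched their labels: all 7 markers of muscle differentiation examined, Myog and Acta1 among them, were called higher on the differentiated arrays, and all 4 markers of proliferation, such as Mki67, were called lower. Of 5 adipocyte markers limma called Pparg lower and 0 higher (likewise 1 lower and 0 higher at an unadjusted p under 0.05 and by the regularized test), while Adipoq, Fabp4, Cidec and Lep lay at background on all proliferating arrays, and Adipoq and Fabp4 on 2 and 1 of the 3 differentiated arrays. The summed signal of all 5 was 266 to 336 on the proliferating and 208 to 332 on the differentiated arrays. Of 5 endothelial markers 0 were called by limma, by the regularized test or at an unadjusted p under 0.05, with Pecam1 and Tie1 at background on all 6 arrays. These cultures hold mononucleated cells beside myotubes, and in such bulk RNA a change in the share of a cell type and a change of RNA per cell cannot be told apart.

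The family did not move as a block. Counting each gene by its brightest probe set, Plpp1 and Plpp3 were called higher in differentiated cells, Plpp2 and Ctdnep1 were called lower, and Lpin1, Lpin2, Lpin3 and Plpp7 were not called. These are 4 called of 8 genes, where 17.7% of all genes were called (8.67% higher and 9.05% lower). The median log2 fold change of the 8 genes was 0.30, against 0.06 for all genes. The groups did not overlap for 5 of the 8 genes, beside 33.5% of all genes. At the level of probe sets, 4 of 16 were called higher, 2 lower and 10 not, beside 12.6% of all probe sets called (6.14% higher and 6.43% lower).

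**Figure D1:**
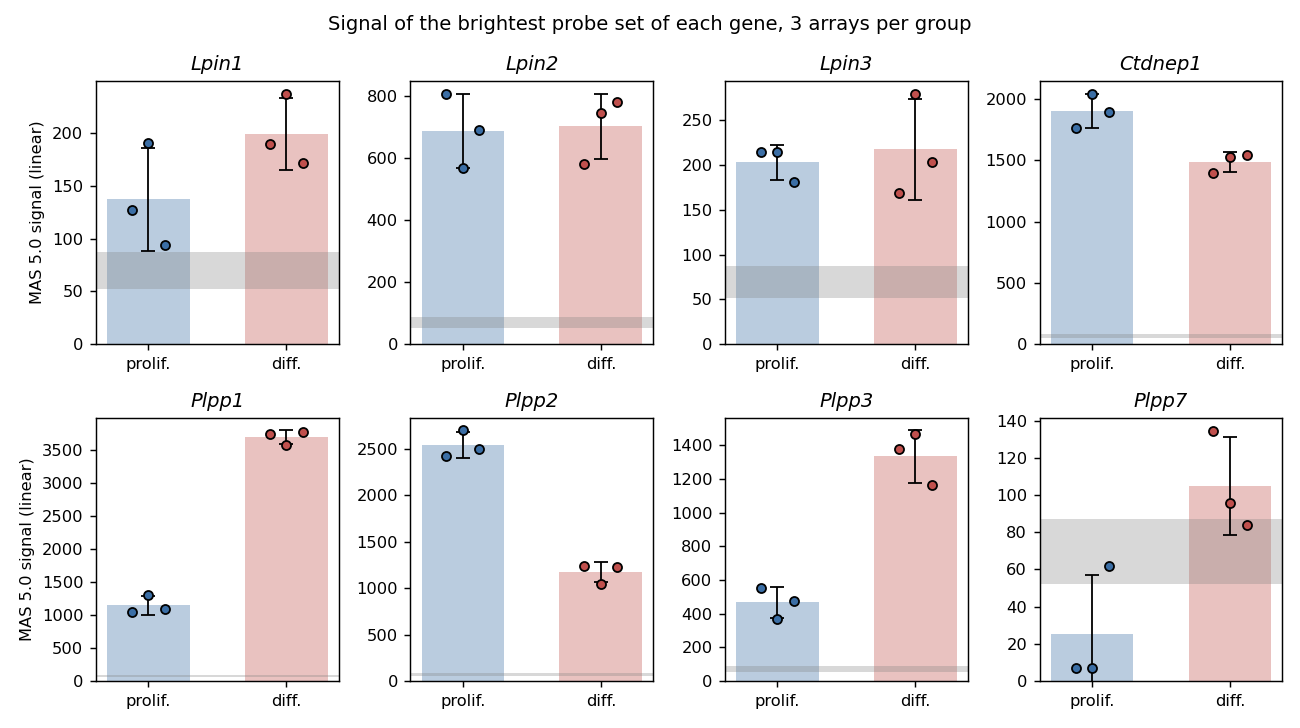
MAS 5.0 signal (vertical axis, linear, each panel on its own scale) of the brightest probe set of each gene in proliferating (blue) and differentiated (red) C2C12 cells. Each bar is a mean with its SD, circles show the 3 arrays of each group, and the grey band runs over the highest bacterial control signals of the arrays, 51.9 to 87.0. The groups are apart for Plpp1, Plpp2, Plpp3 and Ctdnep1, and also for Plpp7, which on the proliferating arrays lies in or under the band.

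Of the lipid phosphate phosphatases, Plpp1 and Plpp3 rose, by 3.21-fold and 2.82-fold, while Plpp2 fell to 0.464 of its level in proliferating cells. Plpp1, a broadly expressed member that hydrolyses lysophosphatidic acid outside the cell, has 3 probe sets. At the brightest (1422620_s_at) proliferating cells gave signals of 1041, 1312 and 1090, and differentiated cells gave 3745, 3581 and 3777. The groups lay far apart, with little spread within each. This was a log2 fold change of 1.68 with a standard error of 0.10 (adjusted p = 2.4e-07 by limma). The suffix of this probe set means that its probes may match more than one transcript. The second probe set (1422619_at) carries no such suffix and gave nearly the same result, from 1051 ± 20.6 to 3191 ± 41.9 (SD, n = 3 each). Its rise was 1.59 on the log2 scale, with a standard error of 0.09 (adjusted p = 7.6e-08 by limma). The third (1425449_at) lay at background on all 6 arrays, between 25.6 and 56.2, and carries no information on the change.

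Plpp3, which also acts on extracellular lysophosphatidic acid and is needed for vascular development in the mouse embryo, has 2 probe sets, and both were called higher. At the brighter the signals were 555, 369 and 478 on the proliferating arrays and 1376, 1465 and 1163 on the differentiated arrays, so that every differentiated array was above every proliferating one. The rise was 1.50 on the log2 scale, with a standard error of 0.15 (adjusted p = 1.7e-05 by limma). The dimmer probe set went from 92.4 ± 15.3 to 270 ± 57.9 (SD, n = 3 each), up by 1.40 on the log2 scale with a standard error of 0.25 (adjusted p = 0.0019 by limma).

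Plpp2, the remaining enzyme of this family, went the other way. Its bright probe set (1451210_at) read 2429, 2701 and 2497 in proliferating cells, and in differentiated cells it read 1244, 1045 and 1230. The groups again lay far apart. This was a log2 fold change of -1.11 with a standard error of 0.10 (adjusted p = 7.8e-06 by limma). The other probe set of Plpp2 (1420910_at) was above background on 1 proliferating and 2 differentiated arrays, with signals between 14.9 and 75.2. It did not show the fall, at a log2 fold change of 0.46 with a 95% interval from -0.79 to 1.72, which is too wide to read a direction from.

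Since Plpp1 and Plpp2 moved in opposite directions, the log2 ratio of their bright probe sets lay between -1.21 and -1.03 on the proliferating arrays and between 1.58 and 1.76 on the differentiated arrays. The ratio restates the changes of both genes and is given as a description. Differences between the changes of members were computed for 7 pairs with an exact 2-sided permutation test. Its smallest p with 3 arrays against 3 is 0.1, so no pair could pass. The changes of Plpp1 and Plpp3 differed by 0.19 (standard error 0.29, exact permutation p = 0.5, 0.7 adjusted over the 7 pairs), and their ratios overlapped between the groups.

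The stretches of DNA upstream of these genes are shown for Plpp3 and Plpp2, which were called in opposite directions, and for Plpp7, their relative at the nuclear envelope. Of the 8 members, 7 were matched to RefSeq promoters of build GRCm38.p6, and Plpp1 was not among them. The 250 bases before each start were searched for the E-box CANNTG, the letters that bHLH factors such as MyoD and myogenin recognise, which reads the same on both strands. Of 32851 promoter windows of this length 66.2% hold at least 1 such match, and 17.2% hold CAGGTG or its complement CACCTG. Matches are in capitals. The window of Plpp7 is on the plus strand of chr2:32095278-32095527, that of Plpp3 on the plus strand of chr4:105157097-105157346, and that of Plpp2 on the minus strand of chr10:79533788-79534037.
Plpp7: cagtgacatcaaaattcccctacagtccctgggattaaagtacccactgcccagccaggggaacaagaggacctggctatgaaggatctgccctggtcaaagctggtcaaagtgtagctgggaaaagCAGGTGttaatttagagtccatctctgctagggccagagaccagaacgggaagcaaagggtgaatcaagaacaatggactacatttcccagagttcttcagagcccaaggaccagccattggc
Plpp3: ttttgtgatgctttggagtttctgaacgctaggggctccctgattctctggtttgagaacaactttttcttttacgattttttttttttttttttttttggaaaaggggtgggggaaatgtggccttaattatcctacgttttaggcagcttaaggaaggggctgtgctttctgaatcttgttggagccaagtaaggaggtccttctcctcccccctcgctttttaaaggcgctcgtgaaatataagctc
Plpp2: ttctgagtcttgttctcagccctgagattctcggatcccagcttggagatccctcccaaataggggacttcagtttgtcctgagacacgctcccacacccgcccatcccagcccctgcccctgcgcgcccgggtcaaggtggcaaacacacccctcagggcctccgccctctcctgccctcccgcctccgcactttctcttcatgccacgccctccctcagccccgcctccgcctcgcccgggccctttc
The Plpp7 window holds 1 match, CAGGTG, at position -123 from the start, and the windows of Plpp3 and Plpp2 hold 0. Of the members not printed, Ctdnep1 also had 0 matches, while the lipins, which were not called, had some: 2 in the window of Lpin1, 1 and 2 in both windows of Lpin3, and 1, 0 and 2 in the 3 windows of Lpin2. One of those of Lpin3 was CACCTG, the complement of the Plpp7 match. The window of Lpin1, 1 window of Lpin3 and 2 of Lpin2 lie inside the annotated genes, before internal starts, and not upstream of the whole gene. GC made up 50.8% of the Plpp7 window, 42.4% of that of Plpp3 and 65.6% of that of Plpp2. A match describes the letters of these windows only and says nothing about binding, and other regions around the genes were not searched.

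Plpp7 (NET39) did not pass the limma test, and the size of its change is not settled by these arrays. Its probe set was at 6.80, 6.90 and 62.1 on the proliferating arrays and at 135, 96.0 and 84.0 on the differentiated arrays. All differentiated arrays were above background and above all proliferating arrays, while on the proliferating side only replicate 3 was above background. The fitted log2 fold change was 1.83 with a 95% interval from 0.61 to 3.05 (standard error 0.56, adjusted p = 0.053 by limma, unadjusted p = 0.0068). The value moved with the handling of low signals, from 2.72 with a pseudocount of 1 to 1.11 with a pseudocount at the 40th percentile of all values and to 0.49 with signals floored at the bacterial control (adjusted p = 0.37). It was above the changes of Plpp1 and Plpp3 as fitted and below both in the last 2 settings. Without proliferating replicate 3 it passed, at 2.43 (adjusted p = 0.011), with the remaining proliferating arrays all at background. Another probe set that the study lists for NET39 has no gene in the annotation used here. It was above background on 1 of the 6 arrays and was not called (log2 fold change 0.77, adjusted p = 0.46 by limma). A Bayesian regularized test of the kind the study used called Plpp7 higher (adjusted p = 0.013). The study processed these arrays differently and counted NET39 among the NETs with a significant increase. By RT-PCR it reported a substantially larger rise of NET39 than by microarray.

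**Figure D2:**
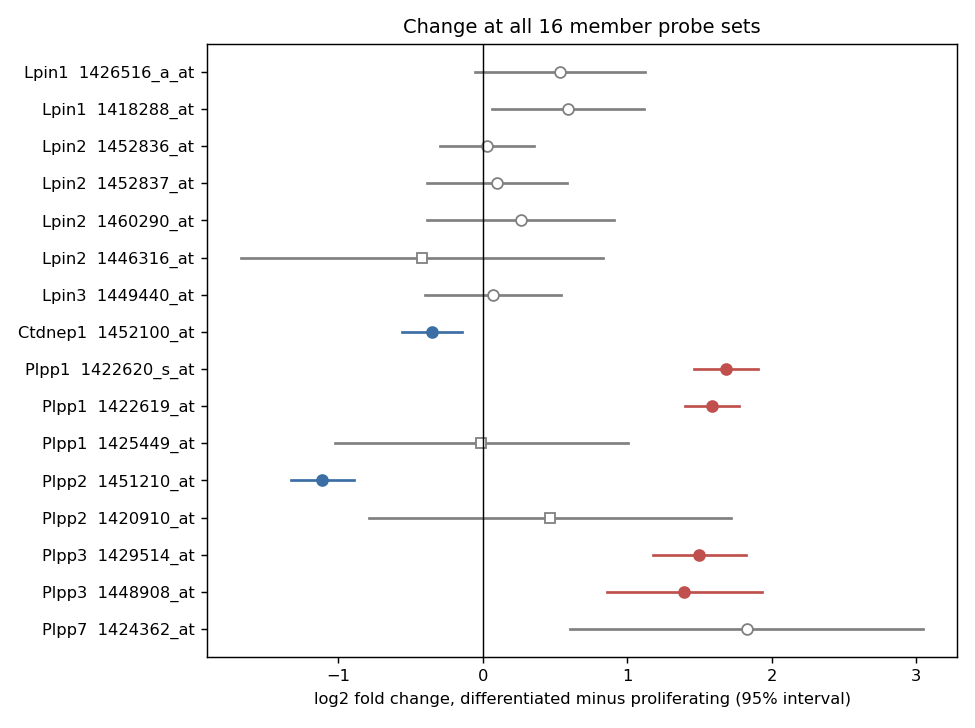
Log2 fold change, differentiated minus proliferating (horizontal axis), with its 95% interval at each of the 16 probe sets (vertical axis, gene and probe set name). Filled red and blue symbols were called higher and lower, open grey symbols were not called, and squares mark probe sets that were not above background on every array of either group. The intervals of Plpp1 and Plpp3 at their called probe sets lie at or above 0.86, that of Plpp2 at its bright probe set at or below -0.89, and those of Lpin2 and Lpin3 span 0.

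None of the 7 lipin probe sets was called in either direction by limma or by a Bayesian regularized test of the kind the study used, and 1 of them, of Lpin1, had an unadjusted p under 0.05. Lpin1, the main muscle form, was dim but above background on all 6 arrays at both of its probe sets. At the brighter by a small margin (1426516_a_at) the signals were 127, 191 and 94.2 on the proliferating arrays and 190, 238 and 172 on the differentiated arrays. At the other (1418288_at) they were 142, 98.4 and 156 and then 173, 223 and 216. The groups overlapped at the first probe set and did not at the second, as was the case for 27.2% of all probe sets. The fitted changes were alike, 0.53 (95% interval -0.06 to 1.12, adjusted p = 0.28) and 0.59 (95% interval 0.06 to 1.12, adjusted p = 0.16 by limma). With both probe sets averaged the change was 0.56 and the adjusted p = 0.055, still short of a call. Both intervals include a rise of 2-fold.

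Lpin2, a lipin prominent in liver and brain, has 4 probe sets. At the brightest the signals were 807, 568 and 692 on the proliferating arrays and 582, 746 and 781 on the differentiated arrays, and the groups overlapped fully. The log2 fold change was 0.03, with a 95% interval from -0.29 to 0.36. A change of 1.5-fold in either direction lies outside that interval. The next 2 were at 0.10 and 0.26 with overlapping groups, and the last (1446316_at) lay at background on all 6 arrays. Lpin3, the least studied lipin, has 1 probe set, with signals of 214, 214 and 181 on the proliferating and 169, 280 and 204 on the differentiated arrays. Its groups overlapped as well, and the change was 0.07 (95% interval -0.40 to 0.54, adjusted p = 0.91 by limma). The change of Lpin1 was larger than that of Lpin2 by 0.50 (standard error 0.41, exact permutation p = 0.4) and than that of Lpin3 by 0.46 (standard error 0.24, exact permutation p = 0.3), with an adjusted p of 0.7 for both over the 7 pairs. The ratios overlapped between the groups in both cases.

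Ctdnep1 (NET56) fell by a small amount from a bright signal. Its single probe set was at 1761, 2043 and 1895 on the proliferating arrays and at 1392, 1525 and 1538 on the differentiated arrays, and the groups do not overlap. The log2 fold change was -0.35 (95% interval -0.56 to -0.14, standard error 0.10, adjusted p = 0.030 by limma). Differentiated cells were at 0.784 of the proliferating level, which is under the change of 1.5-fold that the study required. The study itself reported no significant change of NET56, either on the microarrays or by RT-PCR. The call ended without proliferating replicate 2 or 3 or without differentiated replicate 1 or 2, at changes of -0.30, -0.35, -0.31 and -0.37 (adjusted p = 0.089, 0.084, 0.13 and 0.068). Its ratio to Lpin1 within each array was lower in differentiated cells by 0.88 (standard error 0.27, exact permutation p = 0.1, the smallest possible, and 0.35 adjusted over the 7 pairs). Cnep1r1, the partner that Ctdnep1 needs for its activity, stayed between 937 and 1222 on all arrays, with a log2 fold change of -0.02 (adjusted p = 0.96 by limma).

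Beside these 8 genes, 105 others of the same pathways were listed, of which 99 have a probe set of their own. By their brightest probe sets, 11 were called higher, 6 lower and 82 not called, which is 17.2% called, near the 17.7% of all genes. The lists were drawn up from textbook roles, with earlier results of these data known. Their medians ran from 0.05 to 0.26, against 0.06 for all genes.

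Enzymes that supply phosphatidic acid, the substrate of the lipins, showed 2 genes higher, 2 lower and 15 not called of 19 (21.1% called, beside 17.7% of all genes), with a median log2 fold change of 0.11. Gpam, the mitochondrial acyltransferase of the first step of glycerolipid synthesis, went from 562 ± 61.6 to 961 ± 50.5 (SD, n = 3 each), a rise of 0.76 on the log2 scale (adjusted p = 0.00054 by limma). Gpat4, an acyltransferase of the endoplasmic reticulum that catalyses the same step, fell by 0.57 (adjusted p = 0.015). Of the diacylglycerol kinases, which turn diacylglycerol into phosphatidic acid, Dgkd rose by 0.92 (adjusted p = 0.0039) and Dgkz fell by 0.59 (adjusted p = 0.0058 by limma). Dgkd was called at 2 of its 4 probe sets and each of the other genes at 1 of 2, and none had a probe set called in the opposite direction.

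Another list was drawn around the use of phosphatidic acid or diacylglycerol. It also holds enzymes of the same routes that act on neither lipid, such as choline kinases. Of its 28 genes, 4 were called higher, 2 lower and 22 not (21.4% called, beside 17.7% of all genes), with a median of 0.10. Chpt1, which makes phosphatidylcholine from diacylglycerol, rose from 352 ± 13.7 to 556 ± 24.1 (SD, n = 3 each), by 0.64 (adjusted p = 0.0035 by limma). Chka, a choline kinase of the same route, fell by 0.62 (adjusted p = 0.0032), and Tamm41, which makes CDP-diacylglycerol in mitochondria, fell by 0.87 (adjusted p = 0.00096). Chpt1 was called at 2 of 4 probe sets, Chka at 2 of 3 and Tamm41 at 1 of 2, with 0 called in the opposite direction. Cds2, which makes CDP-diacylglycerol in the endoplasmic reticulum, is not read in either direction. Its brightest probe set was called higher, at 1.32, but 2 of its 6 probe sets were called lower, and the lowest was at -0.89.

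Among 17 relatives in the PAP2 family, limma called 1 higher, 0 lower and 16 not (5.88% called, beside 17.7% of all genes). At an unadjusted p under 0.05 the counts were 3 higher and 1 lower, and by the regularized test 2 and 0. Of the 17, 4 lay at background on all 6 arrays. The called gene was Samd8, which makes a sphingomyelin analogue, which went from 671 ± 76.4 to 1275 ± 74.2 (SD, n = 3 each), a rise of 0.91 on the log2 scale (adjusted p = 0.0001 by limma). It was called at 1 of 3 probe sets. Of the closest relatives of the members, Plpp5 lay between 346 and 414 on all arrays (log2 fold change -0.05, adjusted p = 0.90), and Plpp6 ran from 55.3 to 229 on the proliferating and from 172 to 272 on the differentiated arrays, a change of 0.70 (adjusted p = 0.32). Plpp4 lay at background throughout. None of the 8 CTD-type phosphatases and partners listed with Ctdnep1 was called by limma at their brightest probe sets (0% called, beside 17.7% of all genes). Their median was 0.09. At an unadjusted p under 0.05, 2 of them were lower and 0 higher, and the regularized test called 1 lower.

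Genes of lysophosphatidic acid and sphingosine phosphate signalling, whose ligands are substrates of Plpp1, Plpp2 and Plpp3, showed 4 higher, 2 lower and 21 not called of 27 (22.2% called, beside 17.7% of all genes), with a median of 0.05. Enpp2, Lpar5 and Cers1 were also listed but have no probe set of their own. Pla1a, a phospholipase that releases lysophosphatidylserine, went from 980 ± 105 to 2325 ± 194 (SD, n = 3 each), a rise of 1.24 (adjusted p = 5.4e-06 by limma). Sphk1, a kinase that makes sphingosine phosphate, rose by 0.64 (adjusted p = 0.0080). The sphingosine phosphate receptor S1pr3 fell by 0.52 (adjusted p = 0.0095), and Ugcg, the first enzyme of glucosylceramide synthesis, rose by 0.44 (adjusted p = 0.016). Ugcg was called at 1 of its 4 probe sets, with changes from 0.00 to 0.69, Sphk1 at 1 of 2, S1pr3 at 2 of 3 and Pla1a at its single one. One of the 4 calls, Acer1, lay at background on all 6 arrays and is not read as a change.

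**Figure D3:**
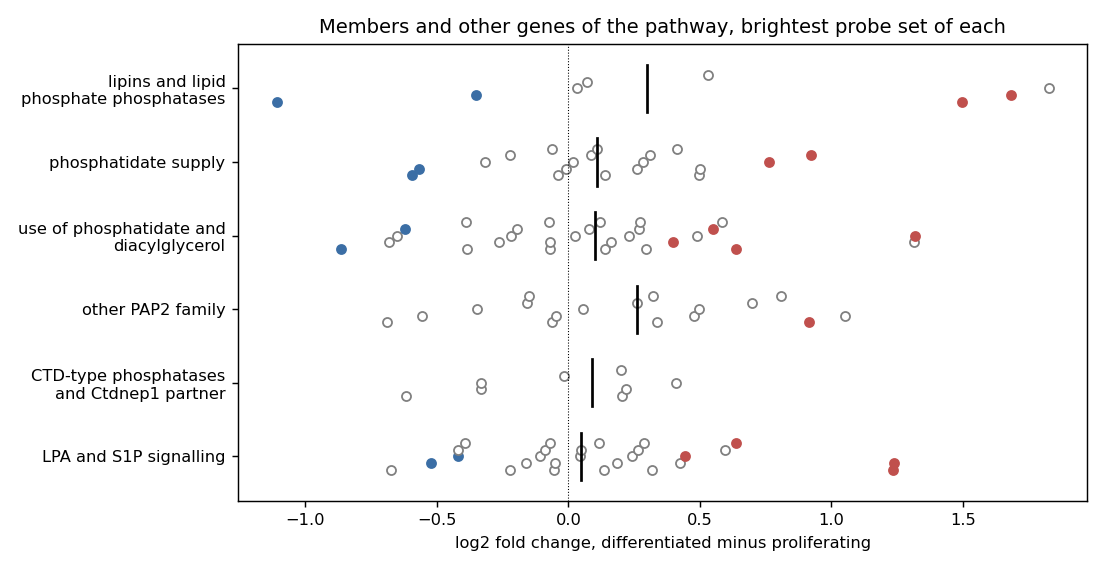
Log2 fold change, differentiated minus proliferating (horizontal axis), of the 8 members and of the other pathway genes (vertical axis, one row per list, brightest probe set of each gene). Filled red and blue circles were called higher and lower, open circles were not called, and black lines are medians, 0.30 for the members and 0.05 to 0.26 for the other lists.

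The genes whose signals over the 6 arrays were most like those of Plpp1, the called member with the largest change, were Chst15, a chondroitin sulfotransferase, Zbtb4, a zinc finger protein, and Itga7, the laminin-binding integrin of muscle. After each was centred on its own mean, their log2 values differed from those of Plpp1 by a root mean square of 0.05, 0.07 and 0.07 over the 6 arrays. On proliferating replicate 1 the probe set of Zbtb4 was at background, at 64.5 where the control of that array was 87.0. Itga7 went from signals of 1701, 2080 and 1962 to 6375, 6350 and 5996. The likeness holds for 1 probe set of each gene. Chst15 was called higher at 1 of its 2 probe sets and Zbtb4 at 2 of 4, of which another was at -0.37 and not called.

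**Figure D4:**
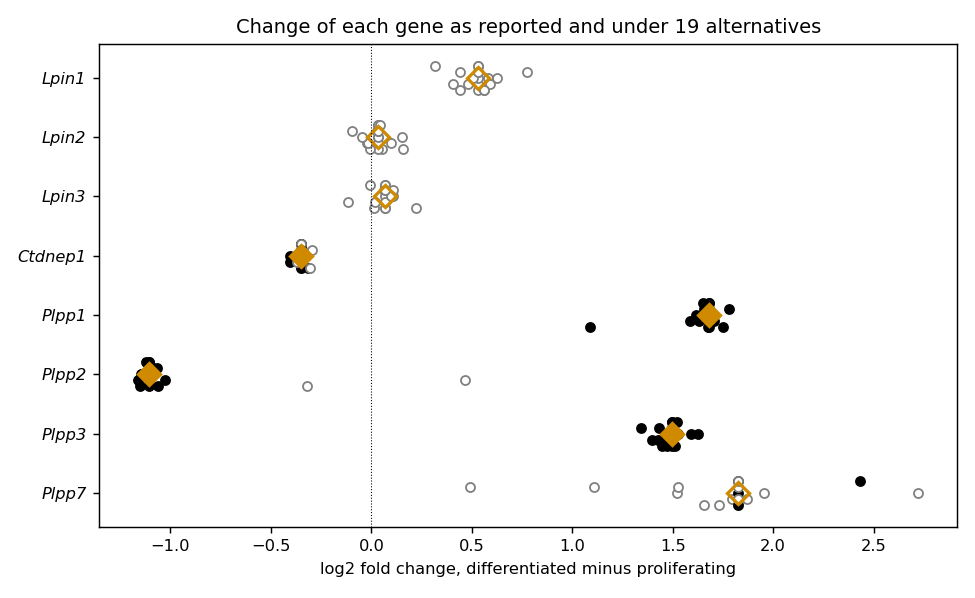
Log2 fold change of each gene (horizontal axis) as reported (diamonds) and under 19 alternatives of normalization, pseudocount, test, probe set or arrays used (circles), with called values filled and values not called open. Plpp1 and Plpp3 were called under all 19 alternatives, Plpp2 under 17, Ctdnep1 under 12, Plpp7 under 5 and the lipins under 0. The alternatives are not independent of each other. For Lpin3, Ctdnep1 and Plpp7, which have a single probe set, the second brightest setting repeats the reported fit. The 1.5-fold setting only adds a cutoff to that fit.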

How the data were processed

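Biotin-labelled cRNA from 6 pooled RNA samples of C2C12 cells was hybridised to Affymetrix arrays, 1 per sample. As deposited by the authors, each intensity is the linear signal of a probe set from Affymetrix Microarray Suite 5.0 (MAS5 in the submitters' processing notes). These signals are relative to the other transcripts of an array, so a change of total RNA per cell is not seen. The study then applied GCRMA and a Bayesian regularized test. GCRMA needs probe-level data, which were not used here.

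After removal of 64 control features from the 45101 probe sets, limma 3.58.1 in R 4.3.3 (lmFit, eBayes with trend, 2-sided, no covariates) was run over the other 45037 on log2(signal + 15), differentiated minus proliferating, with no further normalization. Intervals are limma's 95% intervals. A gene stands by its brightest probe set over the 6 arrays. By the platform annotation 34945 of the probe sets tested have 1 gene, 932 several and 9160 none. Array medians ran from 68.0 to 81.4, and arrays of a group correlated at 0.937 to 0.942 over probe sets (Pearson's r of log2 signals), which are not independent. The number of arrays limits the precision.

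The members and lists were chosen with earlier results of these data known. All members are named, and of each pathway list up to 4 called genes with the largest change whose higher group was above background on every array. Likeness to Plpp1 was the root mean square difference of centred log2 values. Plpp4, Plpp5, Plpp6, Cnep1r1 and Acer1, and the markers, fall outside this rule and were named after their values were seen. The test was tried on simulated data. Python 3.11.15 and pandas 2.3.3 made the tables. The alternatives changed the normalization, pseudocount, treatment of dim signals, variance model, test (a regularized one with a window of 101 and a prior weight of 10), thresholds, pairing, probe set of a gene and arrays used.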

Additional observations from a re-analysis of the deposited data

How the results depend on the processing

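Plpp1 and Plpp3 were called higher under all 19 alternatives, with log2 fold changes of 1.09 to 1.78 and 1.34 to 1.63. The count of members called lower was 1 in place of 2 with eBayes without trend, with the study's thresholds on the regularized test and with a 1.5-fold minimum added to the adjusted p, where Ctdnep1 was lost. It was also 1 with the mean of all probe sets and with the second brightest probe set, where Plpp2 was lost, since its dim probe set then enters or replaces the bright one (-0.32 and 0.46). With single arrays left out, the count of members called lower ran from 1 to 2 and that of members called higher from 2 to 3, the added one being Plpp7 without proliferating replicate 3. Plpp7 was also called when dim probe sets were left out and with the mean of all probe sets (adjusted p = 0.034 and 0.038 by limma). Both settings test fewer features, and its standard error also moved, from 0.562 to 0.585 and 0.5. Which of these mattered was not tested. The filter on dim probe sets kept those above background on at least 3 of the 6 arrays. Plpp7 reached this only through its higher group, with 3 differentiated arrays beside 1 proliferating, so its call under that filter is no separate support. The regularized test called Plpp7 as well (adjusted p = 0.013). So did the study's thresholds on that test, an unadjusted p under 0.05 and a change of at least 1.5-fold. The changes of Lpin2 and Lpin3, which were never called, crossed 0: Lpin2 was at -0.020 with a common 75th percentile, at -0.0069 with the mean of all probe sets and between -0.10 and 0.16 with single arrays left out, and Lpin3 between -0.12 and 0.22. Over the whole array, eBayes without trend called 1367 probe sets higher and 1302 lower, against 2765 and 2894. The replicate numbers are shared between the groups. Deviations of same-numbered arrays correlated at 0.012, 0.00066 and 0.0094. Numbers 1 and 3 matched best with themselves, and number 2 did not. Correlations this small cannot decide whether same-numbered samples were prepared together. With the replicate number as a block 2580 probe sets were higher and 2707 lower, and no member's call changed. The floor at the bacterial control was chosen after seeing the data and moved the median over all probe sets from 0.05 to -0.13. Where no cause is named, the cause was not tested. Signals at background give no reliable fold.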
